A study of Mus musculus with 3 samples.

Results

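The genes of the elastic fibre and its microfibrils were examined in the stromal vascular fraction (SVF) of inguinal fat. The set held 10 of the 32285 genes counted: *Eln*, *Fbn1*, *Fbn2*, *Mfap2*, *Mfap4*, *Mfap5*, *Fbln1*, *Fbln2*, *Fbln5* and *Emilin1*. Each was taken by its symbol. Barcodes with at least 2000 unique molecular identifiers (UMIs, 1 per captured RNA molecule) and at most 10% of UMIs on mitochondrial genes were kept as cells, which gave 10511 WT, 12575 *Mgp*-KO and 8819 *Pd*-KO cells. The values cover the stromal subsets, the mural cells of vessels, and the 3 genotypes.

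Elastic fibres give tissue its recoil. They consist of a core of crosslinked elastin, made from the soluble precursor encoded by *Eln*, on a scaffold of microfibrils built from fibrillins. The microfibril-associated glycoproteins (*Mfap2*, *Mfap5*) and *Mfap4* bind the microfibrils, fibulins guide the placing of elastin on them, and emilin-1 lies where the core meets the scaffold. Microfibrils also bind the latent complexes of TGFβ and hold BMP ligands in the matrix, and vessel walls and fibroblasts are the usual makers of these proteins.

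The mice were 4 weeks old. *Mgp* encodes matrix Gla protein, an extracellular inhibitor of BMP signalling. *Mgp*-KO mice lacked the gene in all cells. *Pd*-KO mice carried *Mgp* flox/flox alleles and a *Pdgfra*-Cre transgene, which acts in cells that have used the *Pdgfra* promoter, so that cells without that history keep the gene. The control was WT, and a library of floxed mice without Cre was not analysed here. All cells were live by DAPI and had been sorted as negative for Cd45, the leukocyte surface marker. Several mice of both sexes were pooled into 1 library per genotype. There were thus no replicates of a genotype, no test between genotypes was possible, and the 95% intervals below cover counting error and nothing else.

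The libraries differed in more than genotype. Median UMIs per cell were 12802 in WT, 6445 in *Mgp*-KO and 8269 in *Pd*-KO, and 35 to 40 barcodes were shared between each pair of libraries. The files name different software versions, Cell Ranger 4 for WT and 7.1.0 for both knockouts. By *Xist* and Y-linked genes, 35.1% of the WT, 60.6% of the *Mgp*-KO and 32.5% of the *Pd*-KO cells were called female. In the same order 35.1%, 14.7% and 39.5% were called male, and the remaining cells had no call. The 10 genes of a list of early stress responses to tissue dissociation summed to 10762 CPM (UMIs scaled to a total of 1e6) in WT, 12778 in *Mgp*-KO and 4201 in *Pd*-KO stromal cells. The part of each of these differences in the results below was not tested.

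*Mgp* itself followed the labels in the stromal cells of both knockouts. In stromal cells it stood at 519 CPM in WT, 1.92 in *Mgp*-KO and 0.619 in *Pd*-KO. In smooth muscle-like cells it stood at 242, 7.38 and 26.5 CPM. In pericyte-like cells it stood at 627 CPM in WT and 632 in *Pd*-KO, so the mural *Mgp* RNA of the *Pd*-KO library lay mostly in that cluster, where 20.0% of the cells had a UMI of it. Free RNA, from barcodes of 10 to 100 UMIs, held *Mgp* at 359 CPM in WT, above the WT smooth muscle-like level, and at 6.28 in *Pd*-KO. In endothelial-like cells the levels were 683 CPM in WT, no UMI in *Mgp*-KO, for which the exact Poisson upper limit is 2.74 CPM, and 37.6 CPM in *Pd*-KO. The smooth muscle-like and endothelial-like cells of *Pd*-KO thus held less *Mgp* RNA than those of WT, unlike the pericyte-like cells. The cause was not tested.

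Cells were grouped by clustering without the 10 genes, their partners and *Mgp*, and clusters were named from marker lists. The stromal cells comprised 8 clusters (7259 WT, 11001 *Mgp*-KO and 6981 *Pd*-KO cells). The interstitial progenitor-like clusters (*Dpp4*, *Pi16*) had *Pi16* and *Krtdap* as their first genes by fold over all other cells and are called by these. *Pi16* itself does not separate them, at 1988, 3183 and 4072 CPM in the former and 2904, 2564 and 2808 CPM in the latter. The others were a fibroblast-like cluster marked by *Ccn5*, preadipocyte-like clusters led by *Cox8b* or *Mmp3*, a cluster like the adipogenesis-regulating cells called Aregs (*F3*, *Gdf10*), and *Col18a1* stroma-like clusters led by *Crabp1* or *Fgf10*. Mural cells were a smooth muscle-like cluster (*Myh11*, *Acta2*) and a pericyte-like cluster (*Rgs5*, *Kcnj8*), with 1051 WT, 224 *Mgp*-KO and 585 *Pd*-KO cells. *Rgs5* itself does not separate them, at 1239 CPM in WT and 2952 in *Pd*-KO smooth muscle-like cells, against 2100 and 1228 in pericyte-like cells. In *Mgp*-KO it stood at 565 CPM in smooth muscle-like cells, and no listed pericyte marker exceeded 525 CPM in pericyte-like cells. The 6 pericyte markers summed to 3249, 1671 and 3348 CPM in pericyte-like cells of WT, *Mgp*-KO and *Pd*-KO. In smooth muscle-like cells their sums were 2031, 1305 and 4586 CPM, so in *Pd*-KO the list was higher there. The 6 smooth muscle markers separated the mural clusters better, with sums of 23181, 31488 and 17921 CPM in smooth muscle-like cells against 5127, 1671 and 804 in pericyte-like cells. All 6 pan-stromal markers were found in the stromal cells of every library, with sums of 15617 to 15922 CPM. The 5 leukocyte markers summed to below 2 CPM there in every library.

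The map of levels places each gene in these clusters. Levels are in CPM of the cluster and are compared between cells for the same gene, never between genes.

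**Figure D1:**
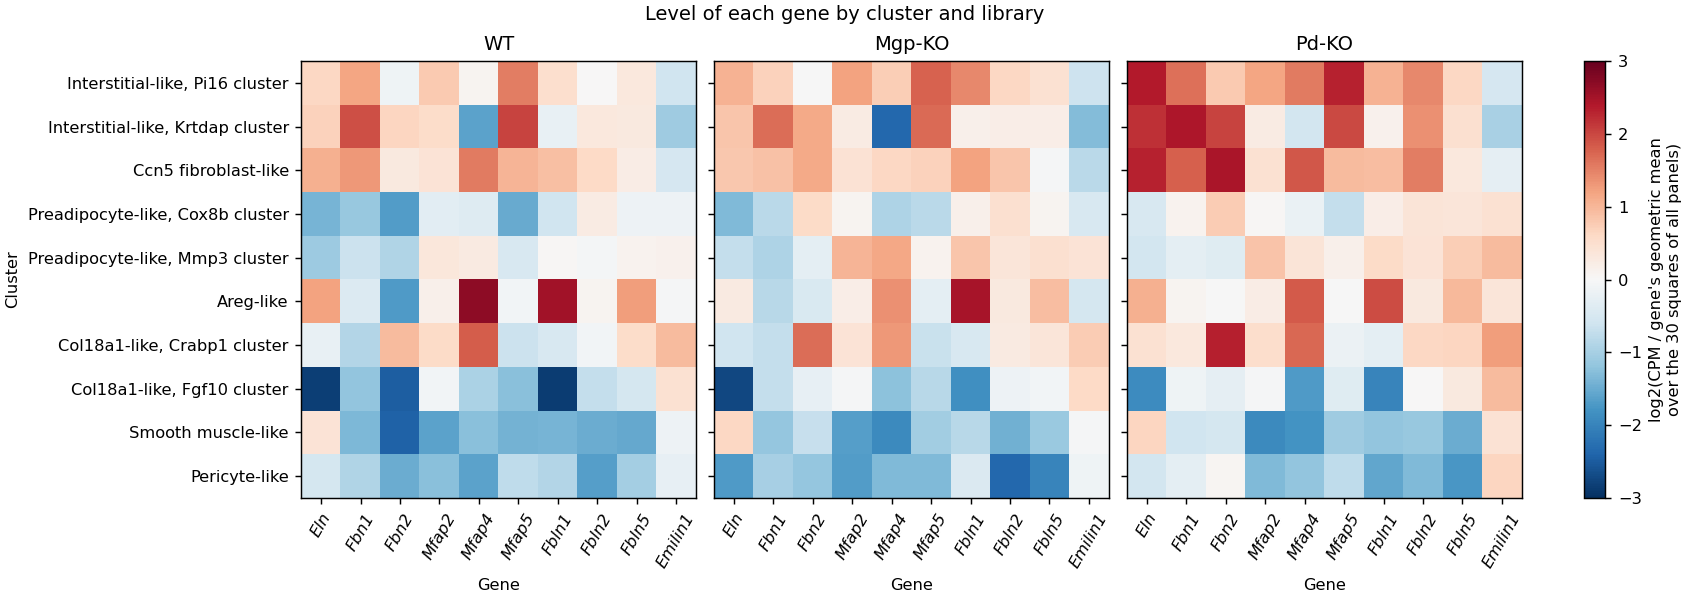
Level of the 10 genes (columns) in 8 stromal and 2 mural clusters (rows) in the WT, *Mgp*-KO and *Pd*-KO libraries (panels), as log2 of CPM over the gene's geometric mean across all squares. *Fbn1* and *Mfap5* are highest in an interstitial progenitor-like row of every panel, *Fbln1* in the Areg-like row, and most genes are low in both mural rows.

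*Fbn1* and *Mfap5* were most abundant in interstitial progenitor-like cells, with *Fbn1* also high in *Ccn5* fibroblast-like cells. *Fbn1* encodes fibrillin-1, the main subunit of the microfibril, on chr2:125300594-125507993 of GRCm38. In the *Krtdap* cluster it reached 3653 CPM in WT, 3042 in *Mgp*-KO and 5144 in *Pd*-KO. The *Ccn5* fibroblast-like cluster came next with 2349, 1758 and 3308 CPM, followed by the *Pi16* cluster with 2165, 1538 and 3025 CPM. Ranges over the 3 libraries overlapped among these 3 clusters, but their lowest value, 1538 CPM, lay above the highest value of any other stromal or mural cluster, 1202 CPM.

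*Mfap5* encodes MAGP-2, which binds fibrillin, and was distributed like *Fbn1*. In the *Pi16* cluster it stood at 3553, 4149 and 6049 CPM in WT, *Mgp*-KO and *Pd*-KO, and in the *Krtdap* cluster at 4943, 3958 and 4788 CPM. The *Ccn5* fibroblast-like cluster followed with 1969 to 2472 CPM, and no other cluster exceeded 1346 CPM, so that neither step overlapped between libraries. After each cell was thinned to 2000 UMIs, 96.9% to 99.4% of the cells in the *Pi16* cluster were expected to keep an *Mfap5* UMI. In luminal epithelial-like cells, which are not a known source, this share was 24.6% in WT, 9.75% in *Mgp*-KO and 10.2% in *Pd*-KO at median depths of 21712, 8883 and 10870 UMIs.

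*Fbn2* encodes fibrillin-2, the fibrillin of developing tissue. On average it was highest in the *Col18a1* stroma-like cluster led by *Crabp1*, at 153 CPM in WT, 253 in *Mgp*-KO and 399 in *Pd*-KO. With both *Col18a1* stroma-like clusters joined, the *Ccn5* fibroblast-like cells had the highest mean of the stromal subsets. Their levels were 96.6, 173 and 428 CPM, and their range overlapped that of the *Crabp1* cluster. *Mfap2*, which encodes MAGP-1, was spread most evenly over the stroma. It ranged from 422 to 1204 CPM over all stromal clusters and libraries, and from 139 to 220 CPM in the mural clusters.

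For *Fbn1*, *Fbln2* and *Emilin1*, the 300 bases from 250 before to 50 after the annotated start are shown (RefSeq, GRCm38.p6), because the first pair was past 1.5-fold higher in *Pd*-KO stromal cells before gene span was allowed for, and *Emilin1* was within 1.5-fold between mural and stromal cells in every library. Capitals mark matches on either strand to the GC box (GGGCGG), the TATA box (TATAAA), the CCAAT box (CCAAT) and the Smad box (CAGAC). The windows lie on chr2:125506389-125506688 (minus strand), chr6:91212514-91212813 (plus strand) and chr5:30913536-30913835 (plus strand). In the GENCODE M21 loci used for spans, the genes start further upstream, at 125507993, 91212455 and 30913402. By those loci each window lies inside its gene, so the annotations differ in the start.
Fbn1: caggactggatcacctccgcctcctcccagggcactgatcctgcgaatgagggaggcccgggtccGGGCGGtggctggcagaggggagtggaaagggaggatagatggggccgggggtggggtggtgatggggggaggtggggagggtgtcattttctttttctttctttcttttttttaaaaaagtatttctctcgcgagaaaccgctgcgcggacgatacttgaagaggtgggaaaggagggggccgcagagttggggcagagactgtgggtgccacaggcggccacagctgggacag
Fbln2: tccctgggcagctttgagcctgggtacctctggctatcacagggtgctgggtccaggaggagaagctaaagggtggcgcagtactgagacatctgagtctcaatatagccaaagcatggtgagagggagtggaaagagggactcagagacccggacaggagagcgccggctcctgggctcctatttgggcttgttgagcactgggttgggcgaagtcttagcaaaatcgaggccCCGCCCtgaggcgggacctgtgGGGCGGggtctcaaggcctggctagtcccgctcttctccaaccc
Emilin1: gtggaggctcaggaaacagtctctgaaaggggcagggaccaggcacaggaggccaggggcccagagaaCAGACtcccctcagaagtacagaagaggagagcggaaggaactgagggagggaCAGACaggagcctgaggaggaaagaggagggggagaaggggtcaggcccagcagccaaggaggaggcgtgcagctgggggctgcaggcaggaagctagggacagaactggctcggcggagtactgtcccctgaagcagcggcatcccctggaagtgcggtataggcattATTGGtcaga
Of the 32851 promoters of this length in the table, 35.7% held a GC box, 13.6% a TATA box, 37.4% a CCAAT box and 49.6% a Smad box. The *Fbn1* window held 1 GC box and the *Fbln2* window 2, whereas the *Emilin1* window held 2 Smad boxes and 1 CCAAT box. No match to the TATA box was found in these windows. Such matches describe letters and not binding. GC content was 60.3%, 60.3% and 61.7%, against a median of 52.7% over all promoters. Of the 10 genes, 6 had an entry in the table: these 3, *Mfap2*, *Fbln1* and *Fbln5*.

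*Eln* RNA was found in several stromal subsets and in smooth muscle-like cells. *Eln* lies on chr5:134702593-134747323, and 3 clusters with overlapping ranges had the highest mean levels. The *Pi16* cluster held 851 CPM in WT, 1139 in *Mgp*-KO and 2859 in *Pd*-KO, the *Ccn5* fibroblast-like cluster 1149, 968 and 2709 CPM, and the *Krtdap* cluster 889, 984 and 2503 CPM. In WT alone, the Areg-like cluster stood above all of them, at 1277 CPM. The *Col18a1* stroma-like cluster led by *Fgf10* was lowest among the stromal and mural clusters, with 77.9, 83.0 and 148 CPM, and its range did not overlap that of any other of them.

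The fibulins divided among subsets. *Fbln1*, whose product binds fibronectin and elastin, was highest in Areg-like cells in every library. It stood there at 564 CPM in WT, 547 in *Mgp*-KO and 388 in *Pd*-KO, against at most 268 CPM in any other stromal or mural cluster. Among the stromal and mural clusters *Fbln5*, needed for the assembly of elastic fibres, was also highest in Areg-like cells, at 244, 196 and 201 CPM. No other of these clusters exceeded 170 CPM, but endothelial-like cells held 304, 247 and 208 CPM. *Fbln2* was highest in the *Ccn5* fibroblast-like cells, at 314, 372 and 606 CPM, but all stromal clusters formed a chain of overlapping ranges. The mural clusters lay apart from it, at 40.8 to 95.1 CPM.

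*Mfap4*, which encodes a fibrinogen-domain protein that binds elastin and fibrillin, was likewise highest on average in Areg-like cells, at 467, 189 and 262 CPM in WT, *Mgp*-KO and *Pd*-KO. It differed sharply between the interstitial progenitor-like clusters. In the *Pi16* cluster it stood at 76.5, 121 and 213 CPM, and in the *Krtdap* cluster at 23.9, 14.2 and 49.3 CPM, so that the values did not overlap. Its UMIs were also concentrated in few cells. In the *Ccn5* fibroblast-like cells, the tenth of cells with most *Mfap4* UMIs held 81.7% of them in WT, 81.4% in *Mgp*-KO and 63.6% in *Pd*-KO, whereas for *Fbn1* this share was 23.3% to 25.7%.

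Among these 10 clusters *Emilin1*, whose product lies where elastin meets the scaffold, was highest in the *Crabp1* cluster of *Col18a1* stroma-like cells, with 105 CPM in WT, 91.1 in *Mgp*-KO and 128 in *Pd*-KO. The *Fgf10* cluster followed with 74.4, 81.5 and 104 CPM. The lowest levels were those of the *Krtdap* cluster, 25.8, 22.1 and 27.7 CPM, which did not overlap those of any other stromal or mural cluster.

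**Figure D2:**
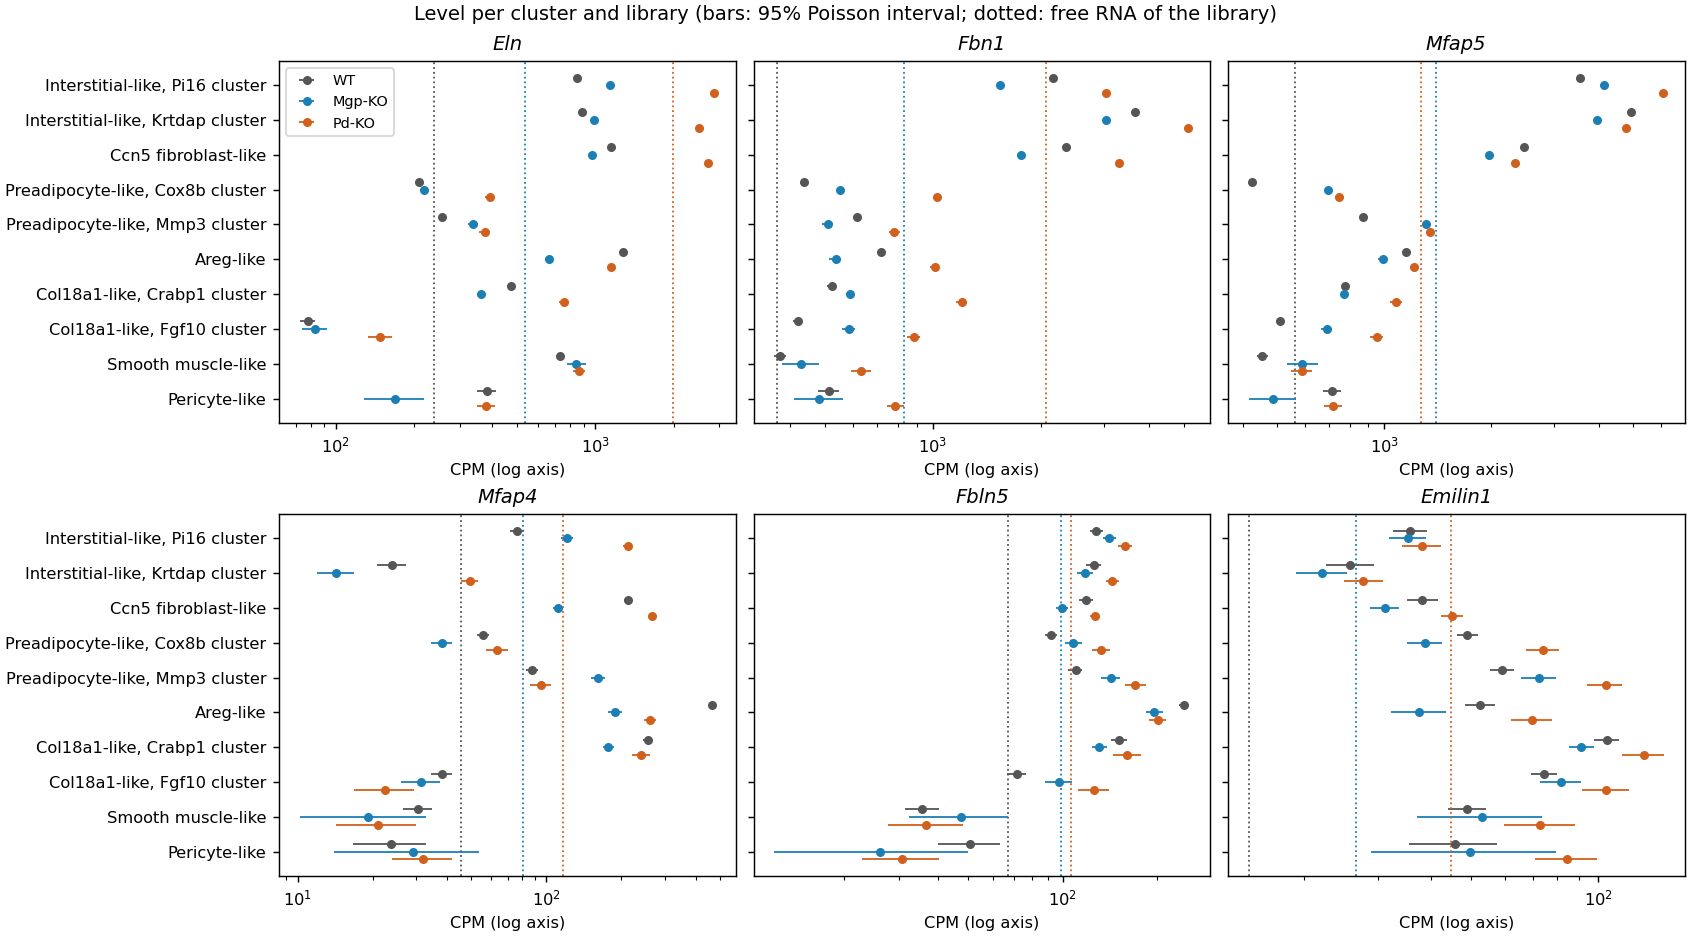
CPM (log axis) of 6 genes in each cluster, 1 point per library, with 95% Poisson intervals. Dotted lines give the level in free RNA of the same library. *Mfap5* is highest in the interstitial progenitor-like clusters, and *Emilin1* is lowest in the *Krtdap* one.

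The similarity of patterns was described over 35 groups of a class in a library, each with at least 50 cells. Groups of 1 library share its depth and free RNA. The gene most like *Fbn1* among 7968 genes was *Mfap5* (Pearson's r = 0.968), followed by *Emilin2* (r = 0.966) and *Cd248* (r = 0.953). *Emilin2* (r = 0.965) and *Igfbp6* (r = 0.956) were next after *Fbn1* for *Mfap5*. *Mfap2* was closest to *Mmp2* (r = 0.971), *Rnase4* (r = 0.963) and *Lrp1* (r = 0.954), and *Fbn2* to *Pcsk5* (r = 0.944), *Antxr1* (r = 0.943) and *Cmah* (r = 0.928). For *Eln* the nearest genes were *Lamb2* (r = 0.918), *Pi15* (r = 0.897) and *Poglut3* (r = 0.859).

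*Mfap4* was nearest to *Igsf10* (r = 0.908), *Gxylt2* (r = 0.900) and *Dcn* (r = 0.894). *Fbln1* was nearest to *Osr1* (r = 0.883), *Chrdl1* (r = 0.877) and *Tgfbi* (r = 0.872), and *Fbln2* to *Gja1* (r = 0.900), *Plpp3* (r = 0.889) and *Pdia5* (r = 0.880). *Fbln5* had *Ltbp4* (r = 0.871), *Fut11* (r = 0.856) and *Ramp2* (r = 0.849) closest to it, and *Emilin1* had *Tpst1* (r = 0.915), *Crtap* (r = 0.906) and *Hoxc8* (r = 0.901). Among the 10 genes themselves, r ranged from 0.40 for *Fbln1* and *Emilin1* to 0.97 for *Fbn1* and *Mfap5*.

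*Emilin1* in all libraries, and *Eln* in WT and *Mgp*-KO, had mural levels close to the stromal ones, and in *Pd*-KO mural *Eln* was 3.37-fold lower than stromal *Eln*. *Eln* stood at 670 CPM in WT mural cells, 617 in *Mgp*-KO and 606 in *Pd*-KO, against 600, 697 and 2041 CPM in the stromal cells of the same libraries. Smooth muscle-like cells, the elastin makers of the artery wall, held 732, 844 and 863 CPM and pericyte-like cells 381, 169 and 378 CPM. *Emilin1* was at 48.2, 51.9 and 78.8 CPM in mural and 52.8, 45.4 and 54.2 CPM in stromal cells, 1.45-fold higher in the mural cells of *Pd*-KO. No gene of the set was higher in mural than in stromal cells in all 3 libraries. *Eln* was higher in WT alone, and *Emilin1* in both knockouts.

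The other 8 genes were lower in mural than in stromal cells in every library. For *Mfap5* the mural levels were 501, 555 and 657 CPM and the stromal ones 1651, 2003 and 2953 CPM. For *Mfap2* they were 180, 165 and 176 CPM against 631, 750 and 745 CPM. The level in free RNA was 560 CPM in WT, 1402 in *Mgp*-KO and 1268 in *Pd*-KO for *Mfap5*, and thus above the mural level in each library. For *Emilin1* it was 14.8, 26.6 and 44.6 CPM, below the mural level in each. *Eln* in free RNA stood at 239, 536 and 1985 CPM, below the mural level in WT and *Mgp*-KO and above it in *Pd*-KO.

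Mural cells also held stromal markers. All 6 pan-stromal markers were found, with sums of 3172 to 4319 CPM, highest in WT and lowest in *Pd*-KO, and none was at 0. When called doublets (barcodes that resemble a mixture of cells) were left out, *Pdgfra* in mural cells was lower, at 26.6 instead of 82.1 CPM in WT, 10.4 instead of 80.4 in *Mgp*-KO and 15.4 instead of 71.5 in *Pd*-KO. *Mfap5* was then at 151, 89.2 and 176 CPM and *Fbn1* at 155, 108 and 255 CPM in the 3 libraries. *Emilin1* stood at 48.3, 59.4 and 84.6 CPM and *Eln* at 664, 575 and 382 CPM. Before that removal, the tenth of mural cells with most UMIs of *Mfap5* held 80.6%, 88.3% and 96.7% of them. For *Emilin1* the same share was 50.8%, 58.5% and 47.8%.

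**Figure D3:**
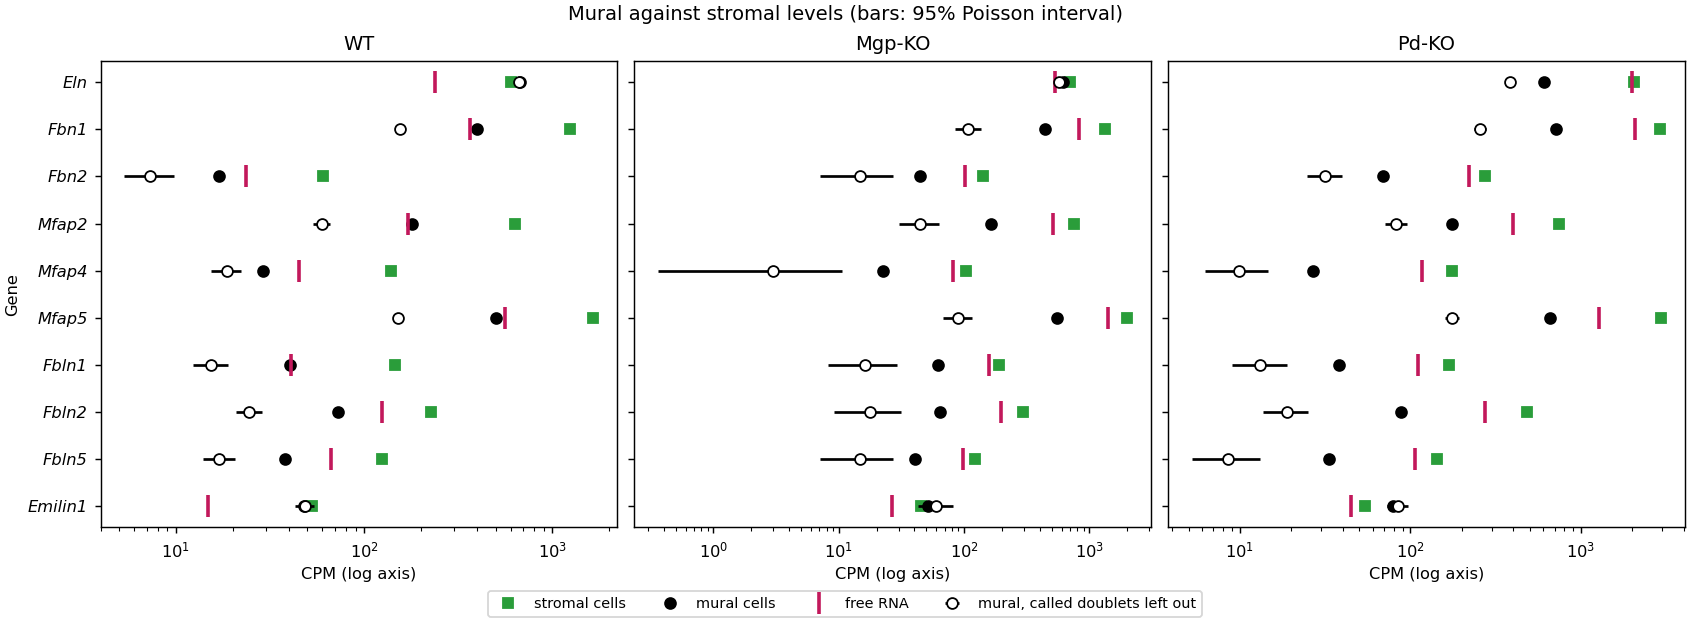
CPM (log axis) of each gene in stromal cells (squares), mural cells (filled circles), mural cells without called doublets (open circles, 95% Poisson interval) and free RNA (bars), by library. *Emilin1* lies above free RNA in mural cells of every library, while the open circles of the 8 other genes beside *Eln* lie below it.

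Endothelial-like cells shared only part of the set. *Fbln5* stood there at 304 CPM in WT, 247 in *Mgp*-KO and 208 in *Pd*-KO, above the stromal level of 124, 122 and 144 CPM and the free RNA level of 67.0, 98.7 and 106 CPM of the same libraries. *Fbln2* was at 292, 244 and 301 CPM, above the stromal cells in WT (226 CPM) and below them in both knockouts (296 and 483 CPM). *Eln* was at 569, 426 and 657 CPM, above free RNA in WT (239 CPM) and below it in both knockouts (536 and 1985 CPM). *Emilin1* was lower than in the stroma or the mural cells of each library, at 19.4, 23.7 and 28.1 CPM. Pan-stromal markers summed to 5229 to 5980 CPM in these cells.

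To compare genotypes, UMIs were summed over the cells of a class, and the median log2 ratio of all genes with at least 100 UMIs was taken off. In the stromal, interstitial progenitor-like, Areg-like and mural cells that median was between 0.14 and 0.26 against WT. In single clusters it could lie outside this range. A gene was counted where it then differed by 1.5-fold or more. Both knockout contrasts share the WT library, so they are not independent. In stromal cells 34.2% of all 13962 genes passed this fold in *Mgp*-KO over WT and 45.8% of 13802 in *Pd*-KO over WT. The fold is therefore common, and sizes are more informative than counts.

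In *Pd*-KO stromal cells *Eln*, *Fbn1*, *Fbn2*, *Fbln2* and *Mfap5* were past 1.5-fold higher than in WT and none of the set was lower, with a median log2 ratio of 0.39. A count of 5 of 10 is near the 45.8% of all genes. Of these calls, *Fbn1* turned to -0.60 and *Fbn2* and *Fbln2* dropped to 0.39 and 0.40 when genes of like genomic span were the reference. With the stromal subsets weighted equally *Mfap5* was at 0.02, and it was not the only call lost, as the count given at the end shows. In *Mgp*-KO stromal cells only *Fbn2* was past the fold higher and *Mfap4* lower, and the median was 0.07. *Fbn2* turned to -0.29 with the reference by span, and *Fbn1* was then past the fold lower. *Mfap4* spans 3.47 kb, and the median ratio of all genes around 3.19 kb was -0.34. In interstitial progenitor-like cells, 4 of 10 genes were higher in *Pd*-KO (*Eln*, *Fbn2*, *Fbln2* and *Mfap4*) against 31.4% of all genes tested in either direction. *Fbn2* turned to -0.14 with the reference by span and to -0.08 without Harmony, and *Mfap4* was below the fold within either sex. In *Mgp*-KO interstitial progenitor-like cells 0 of 10 were past the fold, against 21.4% of all genes. No p can be given for any of these counts with 1 library per genotype.

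*Eln* showed the clearest contrast between the knockouts. Stromal levels were 600 CPM in WT, 697 in *Mgp*-KO and 2041 in *Pd*-KO, so that the *Pd*-KO library alone stood apart. The log2 ratio was 0.05 (interval 0.04 to 0.07) for *Mgp*-KO and 1.57 (1.55 to 1.58) for *Pd*-KO over WT, the latter a 2.97-fold difference. In interstitial progenitor-like cells the levels were 867, 1066 and 2656 CPM, with log2 ratios of 0.14 and 1.43. With the stromal subsets weighted equally the *Pd*-KO stromal value was 0.71. *Ccn5* fibroblast-like and interstitial progenitor-like cells numbered 937 and 1637 of the 7259 WT stromal cells and 2154 and 2413 of the 6981 of *Pd*-KO.

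The ratio for *Eln* also depended on the subset. It was past 1.5-fold higher in *Pd*-KO over WT in both interstitial progenitor-like clusters (log2 1.62 and 1.34), the *Ccn5* fibroblast-like cluster (1.07), the *Fgf10* cluster (0.75) and the preadipocyte-like cluster led by *Cox8b* (0.61). In smooth muscle-like cells it was 0.05. In Areg-like cells, levels were 1277, 664 and 1148 CPM in WT, *Mgp*-KO and *Pd*-KO, and both knockouts lay below WT, with log2 ratios of -1.11 (-1.17 to -1.06) and -0.40 (-0.45 to -0.36). Free RNA held 239, 536 and 1985 CPM of *Eln*. The *Fgf10* cluster, at 77.9 CPM in WT and 148 in *Pd*-KO, and the *Cox8b* cluster, at 209 and 392 CPM, lay below it. The part of free RNA in these differences was not tested.

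For the fibrillins, the stromal contrast with WT moved with gene length. *Fbn1* levels were 1243, 1332 and 2909 CPM in WT, *Mgp*-KO and *Pd*-KO stromal cells, with log2 ratios of -0.06 and 1.03 over WT. *Fbn2* levels were 60.2, 141 and 274 CPM, with log2 ratios of 1.06 and 1.99. *Fbn1* spans 207 kb of the genome and *Fbn2* 202 kb. Over all genes tested, the median ratio climbed with span, from -0.34 to 2.04 in *Mgp*-KO over WT and from -0.55 to 2.20 in *Pd*-KO over WT between the bins of shortest and longest genes. With the running median of the 200 genes nearest in span taken off, *Fbn1* in *Pd*-KO was at -0.60 and *Fbn2* at 0.39, while *Eln*, of 44.7 kb, was at 1.28. In *Mgp*-KO, *Fbn2* was then at -0.29 and *Fbn1* at -1.42. The releases of Cell Ranger named for WT and for the knockouts differ in whether they count intronic reads by default, and release and genotype cannot be told apart in the contrasts with WT.

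**Figure D4:**
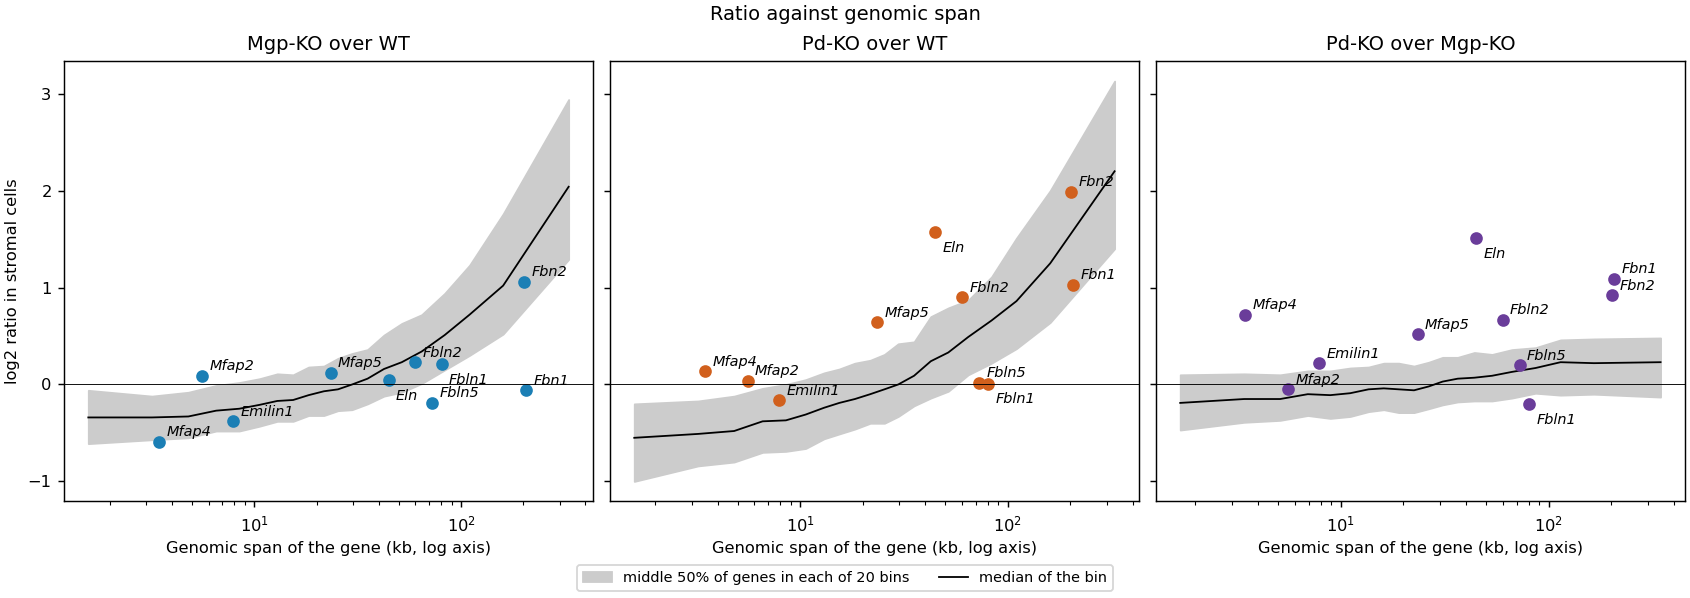
Log2 ratio in stromal cells against genomic span (kb, log axis) for 3 contrasts. The line and grey band are the median and middle 50% of all genes tested in each of 20 bins, and points are the 10 genes. Against WT the line climbs to 2.04 or 2.20, between the knockouts to 0.23.

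Because the headers of both knockout libraries name the same software version, *Pd*-KO was also set against *Mgp*-KO, a contrast chosen once results were in view. The medians of the bins there ran only from -0.19 to 0.23. In stromal cells 5 of 10 genes were past 1.5-fold higher in *Pd*-KO and none lower, against 18.7% of all 13880 genes. They were *Eln* (log2 1.51, or 2.85-fold), *Fbn1* (1.09, 1.08 to 1.10), *Fbn2* (0.92, 0.89 to 0.96), *Mfap4* (0.72, 0.68 to 0.77) and *Fbln2* (0.67, 0.64 to 0.69). The same genes were past the fold in interstitial progenitor-like cells, against 12.2% of all genes, at log2 1.26, 0.86, 0.91, 0.70 and 0.90 in that order, of which *Mfap4* was at -0.01 among male cells alone. With the running median over span, stromal *Eln* was at 1.43, *Fbn1* at 0.84 and *Fbn2* at 0.71. The stromal count fell with each cell or each subset weighted equally, and the subsets were not alike. In preadipocyte-like cells *Eln* stood at 260 CPM in *Mgp*-KO and 385 in *Pd*-KO, and *Fbn1* at 537 and 930. *Fbn2* stood there at 98.6 and 105 CPM and *Fbln2* at 280 and 274 CPM. All 10 dissociation stress genes were past 1.5-fold lower in *Pd*-KO in both stromal and interstitial progenitor-like cells, and 4 of 6 fibrillar collagen genes were higher in stromal cells, *Col1a1* at log2 0.89. Free RNA of *Mgp*-KO and *Pd*-KO held *Eln* at 536 and 1985 CPM, *Fbn1* at 831 and 2067, *Fbn2* at 102 and 220 and *Fbln2* at 197 and 273. Endothelial-like cells held *Fbn1* at 481 and 920 CPM. The part of free RNA in these ratios was not tested.

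**Figure D5:**
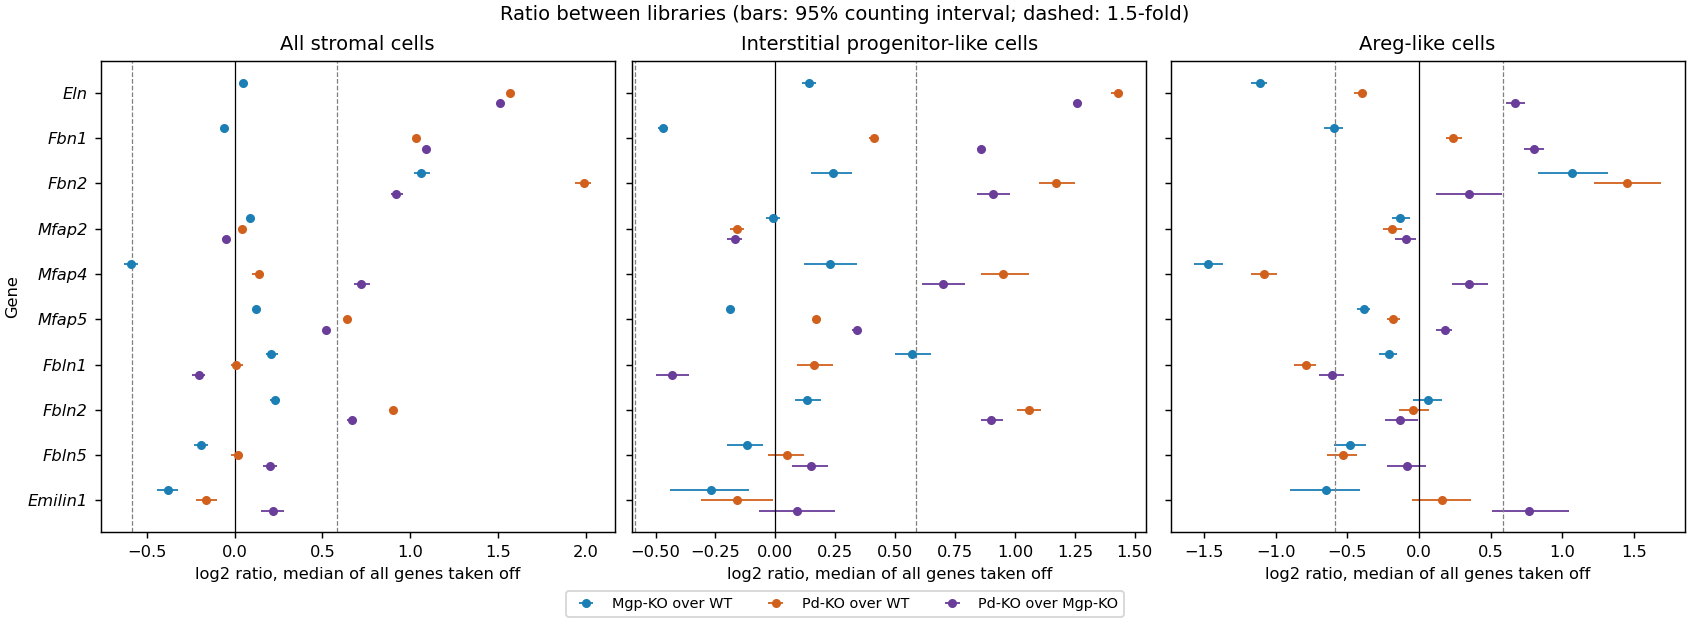
Log2 ratio of each gene between libraries in stromal, interstitial progenitor-like and Areg-like cells, after the median of all genes was taken off, with 95% counting intervals. Dashed lines mark 1.5-fold. *Eln* lies beyond the line in *Pd*-KO over both other libraries in the left and middle panels and below 0 against WT in Areg-like cells.

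Among the proteins that bind the scaffold, *Mfap2* varied least before span was allowed for. Its stromal levels were 631, 750 and 745 CPM in WT, *Mgp*-KO and *Pd*-KO, with log2 ratios of 0.09 (0.07 to 0.10) and 0.04 (0.02 to 0.06) over WT. *Mfap2* spans 5.57 kb, and the bins around 4.79 kb had medians of -0.33 in *Mgp*-KO and -0.48 in *Pd*-KO over WT. *Mfap5* stood at 1651, 2003 and 2953 CPM in stromal cells, with ratios of 0.12 and 0.64. In interstitial progenitor-like cells, its levels were 4143, 4059 and 5331 CPM and the *Pd*-KO ratio was 0.17 (0.16 to 0.19), and with stromal subsets weighted equally the stromal ratio was 0.02. Within the *Pi16* cluster the *Pd*-KO ratio of *Mfap5* was 0.64 (0.62 to 0.66), and in the *Krtdap* cluster it was -0.20 (-0.22 to -0.18), so the joined value covers a call kept in one cluster and not in the other.

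*Fbln2* levels in stromal cells were 226 CPM in WT, 296 in *Mgp*-KO and 483 in *Pd*-KO, with log2 ratios of 0.23 (0.20 to 0.26) and 0.90 (0.88 to 0.92). In interstitial progenitor-like cells they were 231, 282 and 549 CPM, with ratios of 0.13 and 1.06. With the running median over span the latter was 0.67. In preadipocyte-like cells *Fbln2* stood at 227, 280 and 274 CPM, and in Areg-like cells at 218, 255 and 253 CPM. Before span was allowed for, *Fbln1* and *Fbln5* differed little in stromal cells, at 146, 189 and 169 CPM and at 124, 122 and 144 CPM. All their ratios to WT then lay between -0.19 and 0.21. *Fbln1* spans 80.6 kb and *Fbln5* 72.5 kb. The bins of all genes around 64 and 83 kb had higher medians, 0.34 and 0.51 in *Mgp*-KO and 0.49 and 0.66 in *Pd*-KO over WT. *Emilin1* stood at 52.8, 45.4 and 54.2 CPM, with ratios of -0.38 (-0.44 to -0.32) and -0.16 (-0.22 to -0.10). It spans 7.88 kb, and the bins around 8.5 kb had medians of -0.25 in *Mgp*-KO and -0.37 in *Pd*-KO over WT. The *Pd*-KO ratio of *Emilin1* thus lay above the median of genes of like span.

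Several genes were lower in Areg-like cells of the knockouts than in those of WT. In WT they were the stromal subset richest in *Mgp*, at 3874 CPM. *Mfap4* there was at 467 CPM in WT, 189 in *Mgp*-KO and 262 in *Pd*-KO, with log2 ratios of -1.47 (-1.57 to -1.37) and -1.08 (-1.17 to -0.99), or 2.76-fold and 2.12-fold lower. *Fbln1* was at 564, 547 and 388 CPM, with -0.21 (-0.28 to -0.15) and -0.79 (-0.87 to -0.72). In *Mgp*-KO over WT, *Eln*, *Fbn1*, *Mfap4* and *Emilin1* were past 1.5-fold lower and *Fbn2* higher, against 27.6% of all genes in these cells. In *Pd*-KO over WT, *Mfap4* and *Fbln1* were lower and *Fbn2* higher, against 35.9%. Gene span was not allowed for in these values. In stromal cells the bins around 3.2 kb, near the 3.47 kb of *Mfap4*, had medians of -0.34 in *Mgp*-KO and -0.51 in *Pd*-KO over WT. Those around 8.5 kb, near *Emilin1*, had -0.25 and -0.37, and those around 160 kb, below the 202 kb of *Fbn2*, had 1.02 and 1.25. *Fbn2* in Areg-like cells was at 24.1, 57.1 and 78.7 CPM, near free RNA in WT (23.5 CPM) and below it in both knockouts (102 and 220 CPM). *Mfap4* was not lower in all subsets: in *Pd*-KO interstitial progenitor-like cells it was at 120 CPM against 54.2 in WT (log2 0.95), and the value was 0.33 among female cells alone and 0.35 among male cells alone.

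In mural cells only *Fbn2* was past 1.5-fold in either contrast with WT, against 25.4% of all genes in *Mgp*-KO and 35.8% in *Pd*-KO. Its levels were 17.0, 44.1 and 69.2 CPM, below free RNA at 23.5, 102 and 220 CPM in each library. *Eln* ratios were -0.25 (-0.37 to -0.14) and -0.41 (-0.48 to -0.33), and *Emilin1* ratios -0.02 (-0.47 to 0.39) and 0.45 (0.21 to 0.68). Pericyte-like cells were 190 of 1051 mural cells in WT, 71 of 224 in *Mgp*-KO and 285 of 585 in *Pd*-KO. Smooth muscle-like cells held *Eln* at 732, 844 and 863 CPM in WT, *Mgp*-KO and *Pd*-KO, and pericyte-like cells at 381, 169 and 378 CPM. The pooled ratios thus join clusters of unlike level and share, and the part of this mix was not tested. Leaving out called doublets moved the count to 3 genes lower and none higher in *Mgp*-KO, and to 4 lower and 1 higher in *Pd*-KO, so the mural counts rest on that choice.

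The wider machinery of elastic fibres was taken from a list of 24 partners: crosslinking enzymes, latent TGFβ-binding proteins, other fibulins and emilins, and ADAMTS-type proteins of the microfibril. Of 22 tested in *Mgp*-KO over WT stromal cells, 6 were higher and 4 lower past 1.5-fold, against 34.2% of all genes in either direction. In *Pd*-KO over WT, 9 of 21 were higher and 1 lower, against 45.8%, so that share was near that of all genes. The crosslinking enzymes stayed inside the fold in both. *Lox* was at 189, 161 and 219 CPM and *Loxl1*, a main lysyl oxidase of elastin, at 496, 472 and 640 CPM in WT, *Mgp*-KO and *Pd*-KO.

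The partners named here are those past the fold in both contrasts, which share the WT library, so their agreement is no result. *Fbln7* was lower, at log2 -0.84 in *Mgp*-KO and -1.40 in *Pd*-KO. *Ltbp1*, which anchors latent TGFβ to the matrix, was higher (1.12 and 1.61), as were *Adamts6* (3.78 and 4.62), *Adamts17* (1.78 and 1.64), *Adamtsl3* (1.43 and 2.06) and *Thsd4* (3.71 and 3.77), which encodes a fibrillin-binding ADAMTS-like protein. These higher genes span 209 to 555 kb. With the running median over span, *Ltbp1* was at -1.06 and -0.85 and *Adamts17* at -0.10 and -0.43, whereas *Adamts6* stayed at 2.39 and 2.94 and *Thsd4* at 1.09 and 0.97. *Adamtsl3* was then at -0.33 and 0.12, and *Fbln7*, of 34.1 kb, at -0.87 and -1.48.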

How the data were processed

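Each library was a 10x Genomics 3′ preparation, for which the authors deposited an unfiltered matrix of UMI counts, not normalized. Their notes name Cell Ranger 6.1.1 and GRCm39, their methods mm10, and the file headers Cell Ranger 4 (WT) and 7.1.0 (knockouts). The methods give default parameters, under which release 7.1.0 counts intronic reads and the earlier ones do not. The headers do not say whether introns were counted, and genes on the opposite strand overlap *Eln*, *Fbn1*, *Fbn2* and *Mfap4*. The files held 184102026 (WT), 93212243 (*Mgp*-KO) and 83942865 (*Pd*-KO) UMIs.

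From these counts, cells were clustered in Python 3.11.15 with scanpy 1.11.5 (2000 variable genes, 30 components, Harmony, Leiden resolution 0.5), and clusters were named by marker lists with score thresholds set after a first clustering. Doublets were the 8% highest scores per library and were left out only as an alternative, since the automatic threshold called 1 cell in *Mgp*-KO. Levels are CPM with exact Poisson intervals, and log2 ratios have exact conditional binomial intervals. Spans came from GENCODE M21 (GRCm38). The ratio step was checked on simulated counts. Named genes were the 10 members, partners past 1.5-fold in both contrasts, and the 3 genes most correlated with each member. Members and lists were chosen with earlier results of these data known. Scaling, filters, weighting, doublets, sex, span and clustering were varied.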

Additional observations from a re-analysis of the deposited data

Results flagged for a closer look

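*Mfap4* and *Fbln1* lay past 1.5-fold in opposite directions in different stromal clusters of the same contrast. In *Mgp*-KO over WT, *Mfap4* was at log2 0.69 in the preadipocyte-like cluster led by *Mmp3* and at -1.47 in Areg-like cells. In *Pd*-KO over WT it was at 1.35 in the interstitial progenitor-like cluster led by *Pi16* and at -1.08 in Areg-like cells. Over both interstitial progenitor-like clusters joined, *Mfap4* was below 1.5-fold within either sex, as given above. In these joined cells, the tenth with most *Mfap4* UMIs held 79.2% of them in WT and 81.5% in *Pd*-KO. *Fbln1* in *Pd*-KO over WT was at 0.69 in the *Col18a1* stroma-like cluster led by *Fgf10*, where its levels were 13.8 CPM in WT and 25.1 in *Pd*-KO, below free RNA at 40.9 and 111 CPM, and at -0.79 in Areg-like cells. With 1 library per genotype, none of these differences between clusters was tested.

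Barcodes of 10 to 100 UMIs, which were not counted as cells, held *Eln* at 536 CPM in *Mgp*-KO and 1985 CPM in *Pd*-KO, above the 239 CPM of the WT control. The source of this RNA was not tested.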

How the results depend on the processing

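Counts of genes past 1.5-fold moved as follows. In *Mgp*-KO over WT stromal cells, 2 genes became 1 without the median taken off, without called doublets, in male cells, without Harmony, at Leiden resolution 1 and at 2-fold. In *Pd*-KO over WT stromal cells, 5 became 3 at 2-fold and 2 with subsets weighted equally. In *Pd*-KO over *Mgp*-KO stromal cells, 5 became 2 at 2-fold, and 3 with each cell or each subset weighted equally, and in interstitial progenitor-like cells 5 became 1 at 2-fold. In *Mgp*-KO over WT interstitial progenitor-like cells, 0 became 1 without the median, 2 with each cell weighted equally, in female cells and with the running median over span, and 3 without Harmony. Mural counts of 1 became 2 (*Mgp*-KO) and 3 (*Pd*-KO) without the median and without Harmony, 2 and 5 with each cell weighted equally, 3 and 5 without doublets, 3 and 3 in female cells, 3 and 4 in male cells, 5 and 4 at 5000 UMIs, and in *Pd*-KO 5 with span. The causes were not tested. The count of 4 in *Pd*-KO over WT interstitial progenitor-like cells stayed within 1.5 times. With span, *Fbn2* changed sign in *Mgp*-KO over WT stromal cells (-0.29) and *Pd*-KO over WT interstitial progenitor-like cells (-0.14, and -0.08 without Harmony), and *Fbn1* in *Pd*-KO over WT stromal cells (-0.60). *Mfap4* in *Pd*-KO over *Mgp*-KO interstitial progenitor-like cells was -0.01 in male cells. Of 906 gene ratios under alternatives, 417 lay inside the counting interval, 484 lay outside it and 5 were counted as changed in sign. Those 5 had all been past 1.5-fold, so smaller ratios that changed sign may lie among the others. *Eln* in *Pd*-KO over WT kept its direction, from 0.71 to 1.90 in stromal and 1.21 to 1.62 in interstitial progenitor-like cells. Setting *Pd*-KO against *Mgp*-KO, and further alternatives, were chosen after seeing the data. No paired analysis was possible because each genotype has 1 library. Intervals cover counting error only, and 224 mural cells in *Mgp*-KO limit that comparison.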
